A study of Homo sapiens and Mus musculus with 18 samples.

Results

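WNT ligands are the secreted signals that open the WNT pathway, and 10 of their genes were followed from ESCs to gastruloids in human and mouse: WNT1, WNT3, WNT3A, WNT4, WNT5A, WNT5B, WNT6, WNT7B, WNT8A and WNT11. They were chosen by name, as a list of ligand genes, with earlier results of these data known. The shares of all genes set beside their counts are therefore a description. The listed genes were found through their GENCODE gene identifiers. In human they are 10 of 44910 genes counted, and 10 of the 19 WNT genes. In mouse, 9 of 29720 genes counted are members, among 18 Wnt genes, and Wnt1 was not analysed here. RNA-seq covered 18 samples in 9 groups of 2 replicates. The human groups were the H9 line in its naive and in its primed state, the RUES2-GLR line in its primed state, and RA-gastruloids grown from RUES2-GLR ESCs and collected at 24 h (early) or 120 h (late). The mouse groups were naive ESCs, EpiLCs (epiblast-like cells after 2 days of differentiation), and gastruloids collected at 72 h (early) or 144 h (late). H9 and RUES2-GLR are established human ESC lines, the latter a germ-layer reporter line, and the mouse cells were all of the E14 line, so each group rests on 1 line, and the primed human stage alone has 2.

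The media themselves acted on the pathway. Naive H9 cells were kept with XAV939, a tankyrase inhibitor that lowers WNT signalling. They had been cultured on mouse feeder cells, and repeated passaging on Geltrex was used to remove these. To induce RA-gastruloids, RUES2-GLR ESCs were pretreated with 4 µM CHIR99021, a GSK3 inhibitor that turns on WNT signalling downstream of the ligands. The last step of this pretreatment also held retinoic acid (RA). The cells were then aggregated with 1 µM CHIR99021. RA was given again, together with Matrigel, after the early and before the late collection. For primed ESCs of both human lines, the paper gives StemFlex medium and names neither CHIR99021 nor RA. Mouse naive ESCs were grown with 3 µM CHIR99021, EpiLCs without it, and mouse gastruloids, which were seeded from naive ESCs and not from EpiLCs, received a pulse of 3 µM CHIR99021 just before the early collection.

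A WNT ligand is lipid-modified by PORCN, carried to the cell surface by WLS, and binds Frizzled receptors with LRP5 or LRP6. In the canonical branch this stabilises β-catenin, which acts with TCF/LEF factors on targets such as AXIN2, SP5 and LEF1. WNT1, WNT3, WNT3A and WNT8A are the ligands best known for that branch, whereas WNT5A, WNT5B and WNT11 are best known for β-catenin-independent signalling through ROR, RYK and the planar cell polarity pathway. In the embryo WNT3 is needed to form the primitive streak, WNT3A and WNT8A mark the streak and the tail bud, WNT5A is needed for axis elongation, and WNT1 and WNT3A are expressed along the dorsal midline of the neural tube.

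The human windows upstream of WNT8A, WNT3A and WNT1 differed in base composition. WNT8A led the early gastruloids, and WNT3A and WNT1 led the late RA-gastruloids, so their sequences are shown, from 250 to 51 bases before the RefSeq gene start (GRCh38.p14, 5′ to 3′ on the gene's strand, CpG dinucleotides in capitals). The WNT8A stretch is at chr5:138083783-138083982, the WNT3A stretch at chr1:228006748-228006947 and the WNT1 stretch at chr12:48978072-48978271, all on the plus strand.
WNT8A: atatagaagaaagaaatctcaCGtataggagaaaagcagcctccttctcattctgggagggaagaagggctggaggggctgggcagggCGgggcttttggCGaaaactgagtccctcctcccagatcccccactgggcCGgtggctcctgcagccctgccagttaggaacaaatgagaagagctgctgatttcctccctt
WNT3A: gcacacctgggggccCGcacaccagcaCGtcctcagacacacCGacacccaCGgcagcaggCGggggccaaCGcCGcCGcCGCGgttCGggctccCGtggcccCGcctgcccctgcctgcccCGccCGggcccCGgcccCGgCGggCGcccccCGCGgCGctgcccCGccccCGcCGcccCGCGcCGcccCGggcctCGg
WNT1: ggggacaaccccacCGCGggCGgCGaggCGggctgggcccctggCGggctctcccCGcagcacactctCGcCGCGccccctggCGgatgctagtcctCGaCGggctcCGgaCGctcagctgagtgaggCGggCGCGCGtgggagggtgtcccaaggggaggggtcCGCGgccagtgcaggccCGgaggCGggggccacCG
These 200 bases hold 4 CpGs in WNT8A, 30 in WNT3A and 24 in WNT1, and their GC content is 55.5%, 85.5% and 78.5%. Over the full windows of 300 bases, WNT8A has 4 CpGs and WNT3A has 49, against a median of 14 in all 35116 RefSeq windows of that length. WNT4 has 47, WNT6 37, WNT1 34 and WNT3 28. The human windows of WNT5A, whose mouse gene led the late mouse gastruloids, have 21 and 22, and those of WNT5B 10 and 7. Of the members, 8 had such a window, and WNT5A and WNT5B had 2 each. The letters CTTTGAT and CTTTGAA, which TCF/LEF factors are known to bind, were searched on both strands and are in none of the 10 windows (2.62% and 4.43% of all windows hold them), nor is the T-box form AGGTGTGA (0.98%). The TATA box TATAAA is in 1 window, of WNT5B, and in 11.5% of all windows.

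The human libraries held between 3681739 and 38771193 counts, the mouse libraries between 6487157 and 20052505. The shallowest library was primed RUES2-GLR replicate 2, where the floor of 3 counts, the level below which a gene with 0 reads may still lie, is at 0.956 CPM. Levels are given as CPM, counts scaled to the library size after TMM normalization, and, where genes are compared with each other, as TPM, which also divides by gene length. A member is called higher or lower where edgeR's quasi-likelihood test gave a p under 0.05, adjusted over all genes tested by Benjamini-Hochberg, and the log2 difference exceeded 1. Marker lists are compared here for some of the stages. The summed level of 4 human naive markers was 4898 to 5305 CPM in naive H9 and 7.5 to 8.9 CPM in primed H9 ESCs. In mouse, 4 EpiLC markers summed to 2367 to 2403 CPM in EpiLCs, with Dnmt3b at a mean of 1802 CPM. The same sum was 156.4 to 157.7 CPM in naive ESCs and 764.8 to 778.5 CPM in early gastruloids. Early RA-gastruloids had 1049 to 1070 CPM of 6 streak and caudal progenitor markers, against 6.88 to 7.33 CPM in RUES2-GLR ESCs.

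In human, the ligands were sparse in primed ESCs, surged in early RA-gastruloids and were in part replaced in late ones, with WNT3A high in both. The summed TPM of the 10 members was 89.5 ± 5.03 (SD, n = 2) in naive H9, 11.2 ± 0.484 in primed H9, 20.2 ± 3.34 in primed RUES2-GLR, 1861 ± 83.7 in early and 289.7 ± 39.3 in late RA-gastruloids. In mouse, 9 members summed to 15.9 ± 1.85 TPM in naive ESCs, 45.0 ± 1.74 in EpiLCs, 209.4 ± 6.45 in early and 81.0 ± 3.34 in late gastruloids. The size of these steps depends on the scale: the sum was 1.81-fold higher in RUES2-GLR than in H9 primed ESCs by TPM and 3.66-fold by TMM CPM per kilobase, and 92.1-fold and 50.9-fold higher in early RA-gastruloids than in RUES2-GLR ESCs. The leading member by TPM changed with the stage, where WNT genes outside the list are not ranked. It was WNT3 in naive H9 (49.1% of the sum), WNT5B in primed H9 (35.7%), WNT4 in RUES2-GLR (20.2%), WNT8A in early (68.2%) and WNT1 in late RA-gastruloids (39.2%, with WNT3A at 37.4%). In mouse it was Wnt5b in naive ESCs (37.8%), Wnt8a in EpiLCs (49.96%) and early gastruloids (59.7%), and Wnt5a in late gastruloids (43.9%). In whole cultures, fewer cells of a type and less RNA per cell cannot be told apart.

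**Figure D1:**
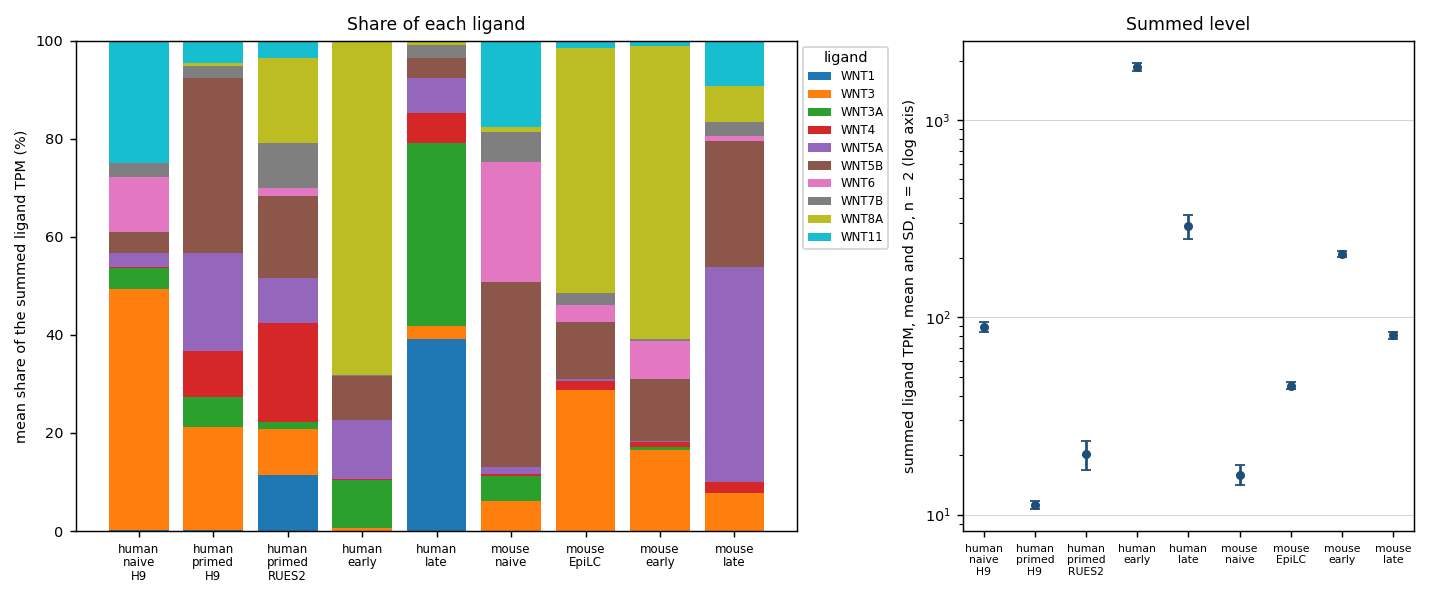
Left, mean share (%) of each ligand in the summed TPM of the members for each group of 2 replicates, where the mouse bars hold 9 genes; right, the summed TPM on a log axis, as mean and SD. WNT8A fills 68.2% of the bar in early RA-gastruloids and 59.7% in early mouse gastruloids, and the human sum is highest in early RA-gastruloids, at 1861 TPM.

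**Figure D2:**
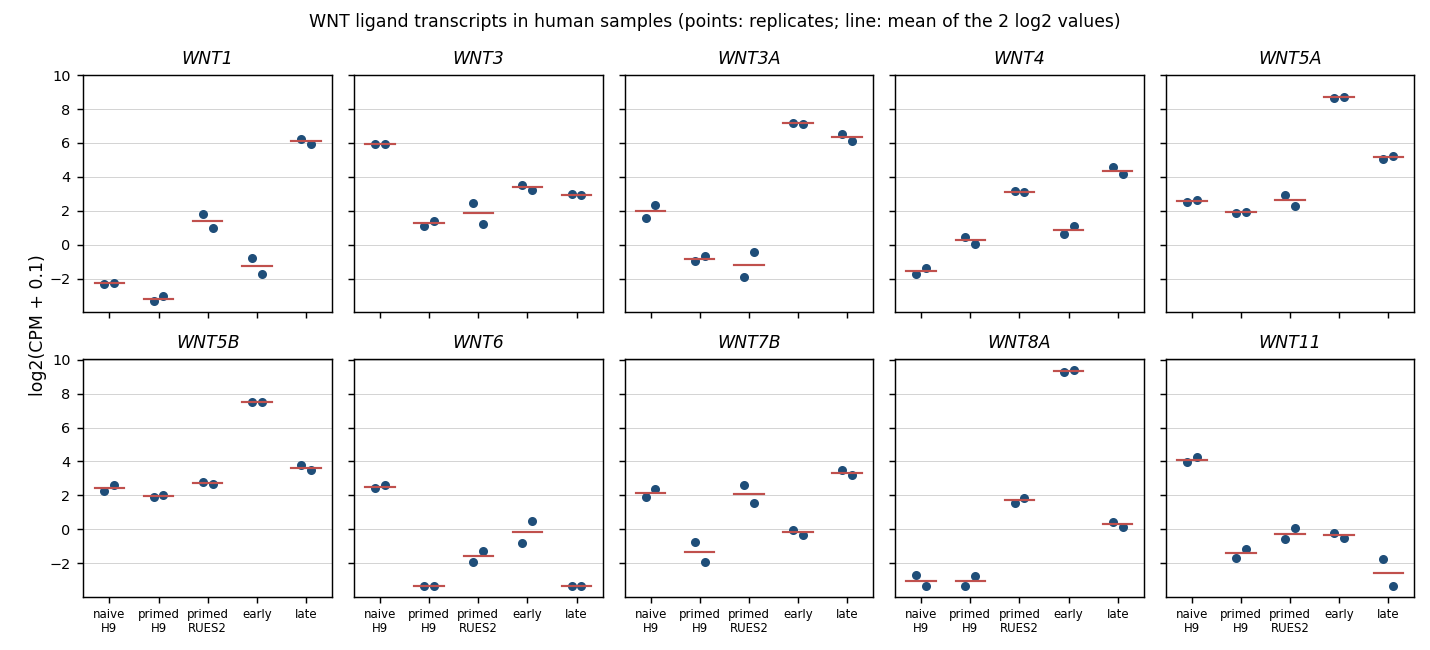
Level of each ligand in the 10 human samples as log2(CPM + 0.1), with 1 point per replicate and a line at the mean of the 2 log2 values. WNT3A, WNT5A, WNT5B and WNT8A stand highest in early RA-gastruloids, WNT1 in late ones, and WNT3 and WNT11 in naive H9 ESCs.

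Naive H9 ESCs expressed a set of ligands that primed H9 ESCs largely lacked. From naive to primed, 5 of 10 members fell (WNT3, WNT3A, WNT6, WNT7B and WNT11) and 1 rose (WNT4), where 22.3% of all genes tested were called lower and 25.5% higher. The median log2 difference of the members was -2.57, and that of all genes was 0.0048. WNT3 was at 61.1 and 60.8 CPM in naive and at 2.10 and 2.50 CPM in primed cells, a log2 difference of -4.68 (SE 0.18, adjusted p = 1.39e-20). WNT11 was at 15.7 and 18.8 CPM in naive and 0.210 and 0.357 CPM in primed cells (log2 difference -5.73, SE 0.28, adjusted p = 7.03e-18). The replicates of both genes lie far closer together than the groups, which do not overlap. WNT6, a ligand known from epithelia, had 100 and 103 counts in naive libraries and 0 in both primed libraries, and was therefore at least 39.6-fold lower. WNT3A fell by 2.95 and WNT7B by 4.05 on the log2 scale. WNT4, known from kidney and gonad development, rose from 0.209 and 0.287 CPM to 1.26 and 0.953 CPM (log2 difference 2.05, adjusted p = 0.000222). WNT5A and WNT5B differed by -0.69 and -0.43, under the fold threshold. WNT1 and WNT8A had 2 counts or fewer in each of these libraries, so that no direction can be read. The naive libraries also held fibroblast markers: 6 of 6 were at 1 CPM or more, summing to 664.6 to 685.8 CPM, against 3 of 6 and 267.0 to 276.1 CPM in primed H9, where DCN and LUM were at 0. The same sum was 562.2 to 628 CPM in primed RUES2-GLR ESCs, with 3 of 6 markers at 1 CPM or more. In early RA-gastruloids it was 991.8 to 1059 CPM, also with 3 of 6. The part of these markers in the naive ligand levels was not tested.

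Primed RUES2-GLR ESCs had more of several ligands than primed H9 ESCs, at low levels throughout. Of 10 members, 5 were higher (WNT1, WNT4, WNT6, WNT7B and WNT8A) and 0 lower, where 17.1% of all genes were higher and 12.2% lower. The 10 members had a median of 2.04, all genes one of -0.12. With upper quartile scaling, 3685 genes were higher and 1492 lower, against 3130 and 2227 with TMM. WNT4 was at 1.26 and 0.953 CPM in H9 and 8.84 and 8.60 CPM in RUES2-GLR (log2 difference 3.06, SE 0.27, adjusted p = 2.20e-11). WNT8A had 0 and 2 counts in H9 and 35 and 11 in RUES2-GLR, a ratio of 84.3 after scaling (95% exact counting interval 22.1 to 717.1). WNT1 had 0 and 1 counts in H9 and 41 and 6 in RUES2-GLR (ratio 172.3, interval 29.5 to 6949). Both genes were thus above their H9 level in each RUES2-GLR library. The call of WNT6 rests on 0 and 0 against 2 and 1 counts, at or under the floor, and is lost without primed H9 replicate 2 (adjusted p = 0.122) or RUES2-GLR replicate 1 (adjusted p = 0.0767). WNT3, WNT5A and WNT5B differed by 0.98, 0.91 and 0.79, under the fold threshold, and the replicates of WNT3 overlap between the lines. Their direction depends on the scale. By mean TPM these 3 were lower in RUES2-GLR, at 1.96, 1.87 and 3.38, against 2.35, 2.23 and 3.99 in H9. The cell line cannot be told apart from other differences between these cultures.

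The early RA-gastruloid gained canonical and non-canonical ligands together. From primed RUES2-GLR ESCs, 6 of 10 members rose (WNT3, WNT3A, WNT5A, WNT5B, WNT6 and WNT8A) and 3 fell (WNT1, WNT4 and WNT7B), where 12% of all genes rose and 17.6% fell. Their median was 1.64, beside 0.084 for all genes. WNT8A was at 2.87 and 3.50 CPM in RUES2-GLR ESCs and 621.2 and 674.5 CPM in early RA-gastruloids, a log2 difference of 7.74 (SE 0.18, adjusted p = 2.61e-25). WNT5A went from 7.62 and 4.78 CPM to 399 and 422.8 CPM (log2 difference 5.90, SE 0.16, adjusted p = 9.86e-24). WNT5B, its close relative, went from 6.96 and 6.37 CPM to 181.3 and 182 CPM (log2 difference 4.74, SE 0.17). In each of these 3 genes the groups are separated by more than an order of magnitude. WNT3A had 2 counts in each RUES2-GLR library and 1505 and 1385 in early RA-gastruloids, a ratio of 545.9 after scaling (95% exact counting interval 213.0 to 2005). WNT3 rose less, from 5.49 and 2.23 CPM to 11.6 and 9.18 CPM (log2 difference 1.15, adjusted p = 0.000103), and was under the fold threshold without RUES2-GLR replicate 2 (0.88) or early replicate 1 (0.99). WNT6 had 2 and 1 counts and then 5 and 13 (ratio 4.53, interval 1.32 to 24.0), and its call is lost with DESeq2 (adjusted p = 0.137), without RUES2-GLR replicate 1 (adjusted p = 0.480) and without early replicate 2 (adjusted p = 0.347). WNT4 fell from 8.84 and 8.60 CPM to 1.44 and 2.02 CPM (log2 difference -2.34, adjusted p = 3.37e-08), and WNT1 and WNT7B fell by 3.10 and 2.71 on the log2 scale. WNT11 did not pass the test, at 0.573 and 0.956 CPM before and 0.769 and 0.606 CPM after.

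Between early and late RA-gastruloids the ligands present changed. RA and Matrigel were added between these 2 collections, and their part cannot be told apart from that of the stage. WNT1, WNT4 and WNT7B rose, and WNT5A, WNT5B, WNT6, WNT8A and WNT11 fell, 3 and 5 of 10 members, where 11.8% of all genes rose and 13.2% fell. The member median was -1.56, or -1.39 with WNT6 at its bound, and that of all genes was 0. WNT8A dropped from 621.2 and 674.5 CPM to 1.26 and 1.02 CPM (log2 difference -9.09, SE 0.18, adjusted p = 8.64e-27). WNT5A went to 33.8 and 37.9 CPM (log2 difference -3.53, SE 0.12) and WNT5B to 13.8 and 11.01 CPM (log2 difference -3.84, SE 0.14), both still above their level in RUES2-GLR ESCs in each library. WNT1 rose from 0.480 and 0.202 CPM to 75.8 and 61.6 CPM (log2 difference 7.61, SE 0.28, adjusted p = 1.69e-20). WNT4 reached 23.6 and 17.6 CPM (log2 difference 3.59) and WNT7B 11.3 and 8.97 CPM (log2 difference 3.70). In each of these 3 genes both late libraries stand above both early ones. WNT3A stayed high, at 144.6 and 139.8 CPM in early and 93.6 and 69.4 CPM in late samples; its difference of -0.79 (SE 0.14, adjusted p = 1.26e-05) is under the fold threshold. WNT3 differed by -0.43 (adjusted p = 0.0604). WNT6 had 0 counts in both late libraries, at least 3.97-fold lower. WNT11 had 8 and 6 counts and then 4 and 0, and its call is lost without early replicate 1 (adjusted p = 0.0579). With only these 2 groups in the fit, WNT6 and WNT11 did not pass the filter and 3 members were called lower. Late RA-gastruloids had 386.0 to 454.6 CPM of 5 roof plate markers and 208.3 to 227.3 CPM of 4 neural tube markers, against 137.8 to 143.7 and 13.2 to 15.8 CPM in early ones. MSX1 was the largest part of the roof plate sum, at a mean of 130.1 CPM in early and 302.3 CPM in late samples. Somite markers went from 25.9 to 28.0 CPM up to 372.2 to 419.4 CPM. The 4 presomitic mesoderm markers went from 750.0 to 791.9 CPM down to 4.9 to 6.2 CPM. Streak and caudal progenitor markers went from 1049 to 1070 CPM down to 130.8 to 155.9 CPM. Neural crest markers went from 217.1 to 224.1 CPM down to 38.6 to 40.2 CPM. Intermediate mesoderm markers went from 32.9 to 37.4 CPM down to 7.95 to 9.21 CPM. Fibroblast markers went from 991.8 to 1059 CPM down to 583.3 to 685.7 CPM. The part of any of these in the ligand changes was not tested.

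**Figure D3:**
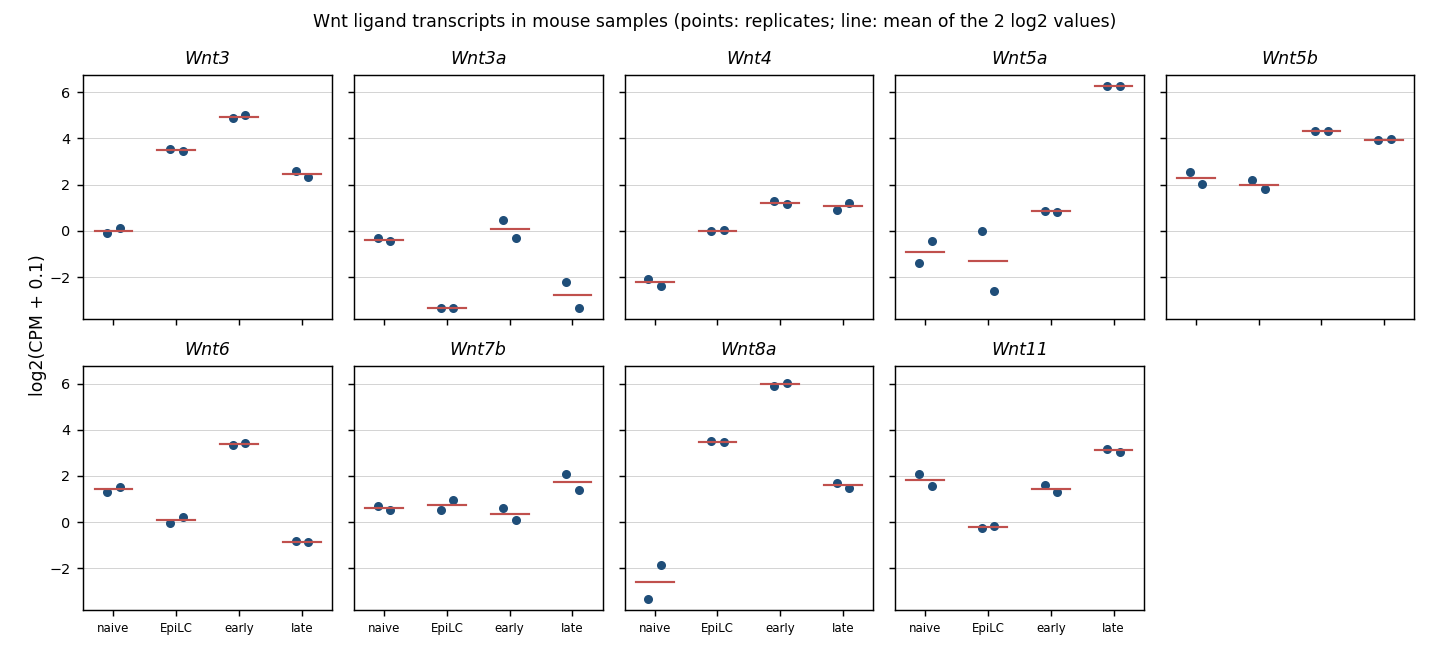
Level of each of the 9 mouse ligands in the 8 mouse samples as log2(CPM + 0.1), with 1 point per replicate and a line at the mean of the 2 log2 values. Wnt3, Wnt6 and Wnt8a stand highest in early gastruloids and Wnt5a in late ones, and Wnt3a stays low in each group.

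In mouse, 8 members passed the filter on low counts. Wnt3a did not: it had 5 and 7 counts in naive ESCs, 0 in both EpiLC libraries, 26 and 8 in early and 1 and 0 in late gastruloids, so it has no test within mouse. From naive ESCs to EpiLCs, Wnt3, Wnt4 and Wnt8a rose and Wnt6 and Wnt11 fell, 3 and 2 of 8, where 17.7% of all genes rose and 12.1% fell. For the 8 members the median was -0.05, beside 0.018 for all genes. Wnt3 was at 0.837 and 0.987 CPM in naive ESCs and 11.7 and 10.9 CPM in EpiLCs (log2 difference 3.58, SE 0.27, adjusted p = 8.77e-18). Wnt8a had 0 and 2 counts in naive ESCs and 77 and 165 in EpiLCs, a ratio of 100.9 (95% exact counting interval 27.6 to 837.9). The 2 streak ligands were thus clear of their naive level in both EpiLC libraries. Wnt11 fell from 4.19 and 2.87 CPM to 0.739 and 0.790 CPM (log2 difference -2.12, adjusted p = 4.32e-06), and Wnt6 fell by 1.38 on the log2 scale. Wnt4 had 1 count in each naive library and 6 and 14 in EpiLCs (ratio 8.34, interval 2.03 to 73.6), and its call is lost without naive replicate 2 (adjusted p = 0.0508). Without EpiLC replicate 1, 4 members were called lower.

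Early mouse gastruloids had more of nearly every ligand than EpiLCs. Of 8 members, 7 rose and 0 fell, Wnt7b being the exception at a log2 difference of -0.41 (adjusted p = 0.371), where 11.7% of all genes rose and 9.24% fell. The member median was 2.08, beside 0.013 for all genes. Wnt8a was at 11.4 and 10.9 CPM in EpiLCs and 60.1 and 65.5 CPM in early gastruloids (log2 difference 2.50, SE 0.11, adjusted p = 4.93e-28). Wnt6 went from 0.887 and 1.05 CPM to 10.2 and 10.6 CPM (log2 difference 3.36, SE 0.27), and Wnt5b from 4.44 and 3.42 CPM to 20.1 and 19.9 CPM (log2 difference 2.41, SE 0.17). Wnt3 reached 29.6 and 31.9 CPM (log2 difference 1.45, SE 0.12). In these 4 genes the replicates differ little beside the step between the groups. Wnt4 rose by 1.31 and Wnt5a by 2.38, and both calls are lost with DESeq2 (adjusted p = 0.149 and 0.0524) and without EpiLC replicate 2 (adjusted p = 0.0715 and 0.165); that of Wnt4 also without early replicate 1 (adjusted p = 0.0642). Measured from naive ESCs, from which the gastruloids were seeded, 6 of 8 rose (Wnt3, Wnt4, Wnt5a, Wnt5b, Wnt6 and Wnt8a) and 0 fell, where 16.2% of all genes rose and 6.81% fell, with a member median of 2.03 and 0.034 for all genes. Wnt3 then rose by 5.03 (SE 0.21), and Wnt8a, from 0 and 2 to 1216 and 745 counts, by a ratio of 567.9 (interval 157.0 to 4693). Wnt11 was at 2.91 and 2.38 CPM, a difference of -0.33 from naive ESCs (adjusted p = 0.309). The call of Wnt5a is lost with DESeq2 (adjusted p = 0.0910). Early mouse gastruloids still held 1005 to 1021 CPM of 4 mouse naive markers, against 2557 to 2616 CPM in naive ESCs and 62.0 to 63.4 CPM in EpiLCs. Their part in the ligand levels was not tested.

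Among the members, Wnt5a had the highest level in late mouse gastruloids. Wnt2, which is not a member, also rose in this step and is given below. From early to late, Wnt5a, Wnt7b and Wnt11 rose and Wnt3, Wnt6 and Wnt8a fell, 3 and 3 of 8, where 20.1% of all genes rose and 19.1% fell. The member median was -0.29, beside -0.030 for all genes. Wnt5a was at 1.73 and 1.67 CPM in early and 77.9 and 77.0 CPM in late gastruloids (log2 difference 5.49, SE 0.16, adjusted p = 1.96e-37). Wnt8a fell from 60.1 and 65.5 CPM to 3.15 and 2.68 CPM (log2 difference -4.40, SE 0.16, adjusted p = 4.43e-33). Wnt6 fell to 0.467 and 0.447 CPM (log2 difference -4.47, SE 0.36) and Wnt3 to 5.84 and 4.91 CPM (log2 difference -2.49, SE 0.15). Wnt3, Wnt6 and Wnt8a thus fell in both late libraries while Wnt5a rose. Wnt11 reached 8.87 and 8.19 CPM (log2 difference 1.66, SE 0.24), and Wnt7b rose by 1.42, a call lost without late replicate 1 (adjusted p = 0.0841). Wnt5b differed by -0.38 (adjusted p = 0.00982), under the fold threshold, and Wnt4 by -0.20 (adjusted p = 0.626). Fibroblast markers summed to 490.1 to 532.8 CPM in late and 2.5 to 3.0 CPM in early gastruloids, with 6 of 6 at 1 CPM or more in late ones. Of the lists for other embryonic cell types, neural tube markers went from 5.28 to 5.37 CPM up to 150.7 to 159 CPM, somite markers from 31.8 to 32 CPM up to 151 to 155 CPM, intermediate mesoderm markers from 2.73 to 2.91 CPM up to 89.1 to 90.1 CPM, and roof plate markers from 5.63 CPM up to 81.6 to 84.2 CPM with 2 of 5 at 1 CPM or more. Neural crest markers went from 17.5 to 18.9 CPM down to 3.50 to 4.32 CPM, and surface ectoderm markers from 22.8 to 24.9 CPM down to 10.1 to 10.5 CPM. The part of any of these in the rise of Wnt5a was not tested. Of the exon bases of Wnt5a, 4.58% are shared with another gene, and of those of Wnt7b 6.62%; in human the share is 8.60% in WNT11 and 1.18% in WNT4. Reads there are left out by the counting.

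**Figure D4:**
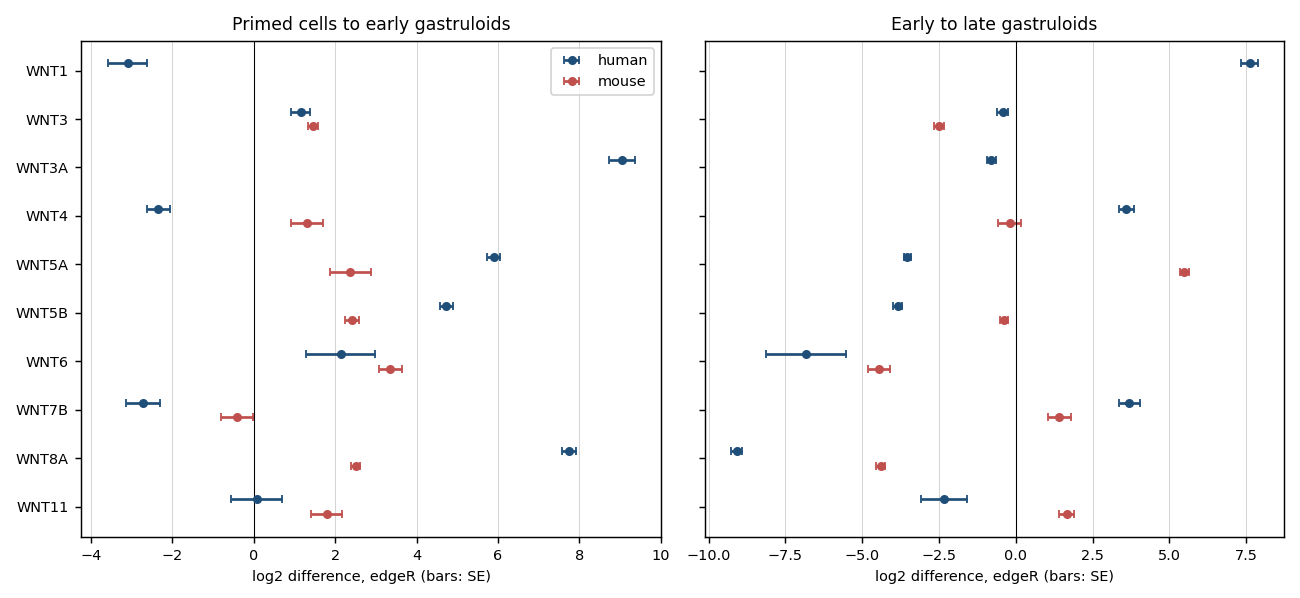
Log2 difference of each ligand with its SE in edgeR, human in blue and mouse in red, from primed cells (RUES2-GLR ESCs or EpiLCs) to early gastruloids on the left and from early to late gastruloids on the right. WNT5A fell by 3.53 in human and rose by 5.49 in mouse between early and late; members without a mouse test have no red point.

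The difference between species was tested directly, as human change minus mouse change, in 1 fit over 14008 genes matched by symbol, 9 of them members. From primed cells to early gastruloids, 3 of 9 changes were higher in human (WNT5A, WNT5B and WNT8A) and 2 lower (WNT4 and WNT7B), where 15.4% of all genes were higher and 17.9% lower. Over the 9 members the median was -0.31 and that of all genes 0.11. WNT8A differed by 5.24 (SE 0.22, adjusted p = 8.74e-20), WNT5B by 2.33 (SE 0.27, adjusted p = 4.72e-09) and WNT5A by 3.51 (SE 0.83, adjusted p = 0.000527). WNT4 differed by -3.65 (SE 0.46), having fallen in human and risen in mouse. The test of WNT3A (2.155, SE 8.561, adjusted p = 0.859) cannot decide, since mouse Wnt3a had 0 counts in both EpiLC libraries. The difference in WNT8A depends on the mouse starting point: with naive ESCs in place of EpiLCs it was -1.30 (adjusted p = 0.173). That of WNT5A is lost without EpiLC replicate 1 (1.37, adjusted p = 0.576) and that of WNT7B, -2.31, without RUES2-GLR replicate 1 (-1.44, adjusted p = 0.161), where 1 member was called lower. WNT11 differed by -1.72 (adjusted p = 0.0572); with TMM factors from all genes, before the filter, it was called lower (-1.82, adjusted p = 0.0465). The starting cells, culture media, use of RA, collection times and CHIR99021 schedules differ between the species and cannot be told apart from species itself.

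Among the members, the early to late changes of the 2 species differed most in WNT5A. The stage names stand for different times: 24 h and 120 h in human, 72 h and 144 h in mouse. The 4 presomitic mesoderm markers summed to 750 to 791.9 CPM in early human samples and 0.35 to 0.44 CPM in early mouse samples. A difference in stage, or the RA and Matrigel added between the human collections, cannot be told apart from species here. Of 9 members, 4 changes were higher in human (WNT3, WNT3A, WNT4 and WNT7B) and 4 lower (WNT5A, WNT5B, WNT8A and WNT11), where 14.2% of all genes were higher and 20.8% lower. The member median was -2.14 and that of all genes -0.091. WNT5A differed by -9.02 (SE 0.21, adjusted p = 6.90e-27), since it fell in human and rose in mouse. WNT8A differed by -4.68 (SE 0.35), with a fall in both species, and WNT5B by -3.46 (SE 0.20). WNT11 differed by -3.98 (SE 0.79, adjusted p = 5.54e-05), with few reads in human. WNT4 differed by 3.80 (SE 0.41), WNT7B by 2.28 (SE 0.57) and WNT3 by 2.07 (SE 0.26). The difference in WNT3A, 3.06 (adjusted p = 0.0191), rests on 1 and 0 counts in late mouse gastruloids. It is lost with DESeq2 (adjusted p = 0.0561), without early mouse replicate 1 (adjusted p = 0.117) and without late mouse replicate 2 (adjusted p = 0.126).

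Other genes of the pathway also changed, and are given from lists of pathway genes. At the early RA-gastruloid stage, compared with RUES2-GLR ESCs, 5 of 8 targets and feedback regulators rose and 1 fell, with a median of 1.503, where 12% of all genes rose and 17.6% fell. LEF1 was at 2.73 ± 2.05 CPM (SD, n = 2) and then 224.2 ± 4.65 CPM, and SP5 at 9.26 ± 2.67 and then 217.4 ± 0.382 CPM. AXIN2, a target that restrains the pathway, went from 19.9 ± 3.36 to 41.6 ± 1.86 CPM. Of 16 receptors and coreceptors 1 rose and 9 fell, FZD10 being the gene that rose, and of 10 antagonists tested 2 rose and 6 fell, against the same shares. RSPO3, a secreted amplifier of WNT signalling, went from 0.482 ± 0.219 to 233.9 ± 7.01 CPM, and WLS, which carries ligands to the surface, from 145.2 ± 9.09 to 409.5 ± 2.07 CPM. From EpiLCs to early mouse gastruloids 3 of 8 targets rose and 1 fell, Axin2 going from 5.52 ± 1.12 to 110.3 ± 0.365 CPM, where 11.7% of all genes rose and 9.24% fell. Of 16 receptors 2 rose and 3 fell there. From early to late gastruloids, 1 of 10 antagonists rose and 4 fell in human (11.8% and 13.2% of all genes), while 7 of 11 rose and 2 fell in mouse (20.1% and 19.1%). The CHIR99021 in these media acts on the targets without a ligand, so ligand and target levels are given side by side only. From naive to primed H9, 7 of 10 antagonists rose and 1 fell (25.5% and 22.3% of all genes), SFRP2 going from 1.43 ± 0.0939 to 710.5 ± 43.4 CPM. From H9 to RUES2-GLR, 12 of 16 receptors were higher and 0 lower (17.1% and 12.2% of all genes).

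The 9 other WNT genes showed a few strong changes. From naive to primed H9, 5 of 7 tested fell and 1 rose, where 22.3% of all genes fell and 25.5% rose, and WNT9A went from 85.8 ± 8.59 to 3.35 ± 0.486 CPM. Distances between neighbours are taken between their outermost annotated exons. WNT9A lies 59.06 kb from WNT3A in human and 16.18 kb in mouse, with no coding gene between. WNT9B lies 46 bases from WNT3 in human and 24.33 kb in mouse, also with no coding gene between. The human value depends on the annotated transcripts. The RefSeq start window of WNT3 (chr17:46818643-46818942) lies inside the annotated gene, whose last base is 46833154. WNT10B is 6.59 kb from WNT1, and WNT10A 6.62 kb from WNT6. From early to late RA-gastruloids 4 of 7 rose and 0 fell (11.8% and 13.2% of all genes). In mouse 1 of 3 rose and 0 fell (20.1% and 19.1%): Wnt2 had 0 counts in both early libraries and was at 39.3 ± 1.69 CPM in late ones.

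Among genes with a similar profile, the closest to each member were found by Pearson's r of log2 CPM over the 10 human samples, across 13375 genes, or the 8 mouse samples, across 12069 genes. These samples are stages of a course, so many genes share a high r, and it is given as a description. WNT8A was closest to HILPDA (0.997), WNT5A to HHIPL2 (0.995), WNT3A to TERF2IP (0.993), WNT5B to MSGN1 (0.989), a presomitic mesoderm factor, and WNT1 to NTN1 (0.985), a guidance cue of the ventral neural tube. WNT3 was closest to TNFAIP3 (0.990), WNT4 to DRAXIN (0.990), WNT6 to C11orf96 (0.986), WNT7B to CCDC80 (0.966) and WNT11 to MRPS18B (0.988). In mouse Wnt3 was closest to Rprd1a (0.998), Wnt4 to Col9a3 (0.997), Wnt5a to Ten1 (0.996) and Wnt5b to Kif16b (0.990). Wnt6 was closest to Itsn2 (0.996), Wnt7b to Thsd7a (0.981), Wnt8a to Wnt3 (0.998) and Wnt11 to Plpp3 (0.993). Next in rank were Wnt8a for Wnt3, Fgf8 for Wnt4 (0.996) and Eomes, a streak factor, for Wnt5b (0.989).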

How the data were processed

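Polyadenylated RNA of 18 samples in 9 groups was sequenced. The authors used Trimmomatic 0.39 for trimming, STAR for alignment (GRCh38, GRCm39) and featureCounts, in its default mode, for counting; the deposited values are whole-number counts per gene, not normalized, 1 table per species. Default counting ignores strand and drops reads with several alignments or genes. The annotation release is not given in the sources used here. Sample columns not mapped numbered 0. Symbols came from GENCODE (44876 of 44910 human and 29486 of 29720 mouse identifiers found).

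Genes were kept by filterByExpr (18300 human, 15003 mouse) and tested with edgeR 4.0.16 (R 4.3.3), by glmQLFTest after glmQLFit; all groups of a species entered the same fit. TMM factors and library sizes came from the kept genes, in the order the planned test gives them. A first run had taken them from all genes; it was replaced after its member calls had been seen, when its counts of called genes were found to differ from those of an earlier analysis of these data, and it is kept as an alternative chosen after seeing the data. The species difference used 1 fit of 18 samples over 14008 of 15372 matched genes. The test was checked on simulated data. DESeq2 1.42.0, other scalings, filters, thresholds and sample choices were alternatives; an adjusted p that DESeq2 did not give was left out. TPM was computed from counts and deposited gene lengths. Log2 CPM used a prior count of 2. Counting intervals are exact 95% intervals and, like the floor of 3 counts, cover counting error only. Intervals and figures used scipy 1.17.1 and matplotlib 3.10.9 under Python 3.11.15.

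All members are named; other genes come from lists of pathway genes and from the 3 genes most like each member. Members and lists were chosen with earlier results of these data known. The replicates of each group come from a shared collection batch, so p-values measure the spread between those samples; their counts differed by more than sampling noise (chi-square per degree of freedom 1.55 to 13.7). The read configuration of each sample is not given in the sources used here.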

Additional observations from a re-analysis of the deposited data

Results flagged for a closer look

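The human and mouse changes of 8 members differed in at least 1 step by the edgeR test of the difference (human minus mouse, log2). From primed cells to early gastruloids, the difference was 5.24 in WNT8A, 3.51 in WNT5A, 2.33 in WNT5B, -2.31 in WNT7B and -3.65 in WNT4. From early to late gastruloids, it was 3.80 in WNT4, 3.06 in WNT3A, 2.28 in WNT7B, 2.07 in WNT3, -3.46 in WNT5B, -3.98 in WNT11, -4.68 in WNT8A and -9.02 in WNT5A. The 2 steps share the early samples. Groups of 2 replicates are too small for a test of outlying samples.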

How the results depend on the processing

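Of 65 member changes called, 51 kept their call under each alternative run, 13 lost it in a test under at least 1 (6 of them under an alternative other than leaving out a library), and 1, WNT6 from early to late RA-gastruloids, had no test with only the groups compared. In all, 5 called changes of WNT4, WNT6 and WNT11 were below the filter there. Counts of members called moved by more than 1.5 times in 4 cases. Primed H9 to RUES2-GLR had 8 higher with the adjusted p alone. Early to late RA-gastruloids had 5 lower, and 3 with only the groups compared; leaving out a library gave 4 to 6. Leaving out a library gave 3 to 4 lower from mouse naive ESCs to EpiLCs and 1 to 2 lower in the primed to early species difference. The directions that turned in these tests all belong to members not called, except WNT8A. With mouse naive ESCs as the starting point, the primed to early species difference was -1.30 in WNT8A, 0.14 in WNT6 and 0.41 in WNT11. WNT11 from RUES2-GLR to early RA-gastruloids was -0.04 with upper quartile scaling and -0.02 with DESeq2. Leaving out a library turned WNT8A from naive to primed H9 (range -1.94 to 2.41), WNT3A from H9 to RUES2-GLR (-1.46 to 0.49), WNT11 from RUES2-GLR to early (-0.55 to 0.24), Wnt5a (-2.71 to 0.84) and Wnt7b (-0.09 to 0.37) from naive ESCs to EpiLCs, Wnt7b from naive ESCs to early gastruloids (-0.55 to 0.01) and WNT3 in the primed to early species difference (-0.53 to 0.77); the cause was not tested. Taking TMM factors from all genes, the first version run, added 1 call, WNT11 in the primed to early species difference (-1.82), and changed no other member call. The replicate number as a block changed no member call. Deviations of same-numbered replicates correlated at -0.112 to 0.0684 in human and -0.0483 to 0.00806 in mouse. These values cannot show whether same-numbered replicates were handled together, and the main fit has no pairing. Per kilobase of TMM CPM in place of TPM, the summed ligand levels kept the order of the groups within each species, but RUES2-GLR over H9 moved from 1.81-fold to 3.66-fold and early RA-gastruloids over RUES2-GLR from 92.1-fold to 50.9-fold. Few counts limit WNT1 and WNT8A in H9 ESCs, WNT6 and WNT11 in the human groups other than naive H9, and Wnt3a in mouse.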
